A study of Sus scrofa with 6 samples.

Results

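The cytosolic ribosomal protein genes encode the proteins that, together with ribosomal RNA, build the ribosome of the cytoplasm. On the array used here they were the probe sets whose only gene symbol in the platform annotation is an RPL or RPS symbol with a number, 1 of the acidic stalk proteins RPLP0, RPLP1 and RPLP2, or RPSA, with the S6 kinase genes left out. This rule used names only and found 94 of the 23999 tested probe sets, which belong to 62 of the 6765 genes with a symbol of their own on the array. Of these genes, 31 encode proteins of the large subunit, 24 encode proteins of the small subunit including RPSA, 3 encode the stalk, and 4 (RPL22L1, RPL26L1, RPL7L1 and RPS27L) encode paralogues of a ribosomal protein. A gene with several probe sets was read at the one with the highest mean log2 signal.

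RNA from the left ventricular (LV) free wall of 6 Large White piglets was measured on Affymetrix Porcine arrays, with 1 animal per array. The 3 Dox-injected piglets had received 2.0 mg/kg doxorubicin (Dox), an anthracycline drug that is toxic to heart muscle, as 1 intravenous dose at 8 days of age. The 3 PBS-injected piglets, of the same breed and age, had received phosphate-buffered saline. Animals were assigned to the groups at random, and tissue was taken 3 weeks after injection at 28 days of age. The methods text of the study gives a slightly different dose range and age. Whole LV tissue holds many cell types, so fewer cells of a type and less RNA per cell cannot be told apart in any value below.

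The small subunit reads the messenger RNA, and the large subunit joins the amino acids. The stalk on the large subunit recruits the elongation factors. The messenger RNAs of nearly all of these proteins begin with a run of pyrimidines, known as a TOP motif, through which mTOR signalling controls how well they are translated. They are abundant in most tissues, and several of them are in common use as reference genes for PCR. In the study behind these arrays, RPL19 was the internal standard of quantitative PCR on the same kind of tissue, and its level across groups therefore matters for reading such data. The primers used there for pig RPL19, a protein of the large subunit, are shown because they define that standard, in lower case throughout and each from 5′ to 3′.
RPL19 forward: ctgctcagaagataccgtgaat
RPL19 reverse: gcttgtggatgtgctccatga

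No ribosomal protein gene passed the threshold of a fold of at least 2 with an adjusted p of at most 0.05 (limma, Benjamini-Hochberg adjustment over 23999 probe sets). The same was true of the array as a whole, where 0% of probe sets were called. An unpaired test on log2 signals, of the kind that the study's general statistics name, also called 0 of the 62 genes. At an unadjusted p of at most 0.05 it gave 22 higher and 0 lower. Of the 23999 probe sets, the same test gave 678 higher (2.83%) and 1041 lower. The smallest adjusted p among the 62 genes was 0.521 from limma. Below that threshold the genes followed 1 narrow pattern. The mean log2 signal was higher in Dox-injected piglets for 58 of the 62 genes, with a median log2 difference of 0.37 (interquartile range 0.32 to 0.39), which equals a fold of 1.29. The median over all tested probe sets was -0.10. Centring each array on its hybridization spike-in controls turned the direction of that median, to -0.10 for the 62 genes and -0.57 for all tested probe sets. The direction of the difference between the groups therefore depended on the scaling, as set out with the controls below.

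At an unadjusted p of at most 0.05, 29 of the 62 genes were higher and 0 were lower in Dox-injected piglets (limma), against a background of 3.62% of all tested probe sets higher and 5.92% lower. In 53 genes the groups did not overlap, with every Dox-injected piglet above every PBS-injected piglet, and in 0 genes was the reverse true. The background was 6.19% of all probe sets for the first pattern and 10.1% for the second. The groups overlapped for the other 9 genes. These counts do not add up independent results, because the genes were measured on the same 6 arrays and varied together. Each array was also left out in turn, with the share of all tested probe sets that were higher given in brackets. The count of 29 fell to 2 when Dox replicate 3 was dropped (2.48%, against 3.23% of the 62 genes). Dropping PBS replicate 1 also left 2 genes (2.01%, against 3.23%). The count was 7 with PBS replicate 3 dropped (2.75%), 8 with PBS replicate 2 dropped (2.84%) and 16 with Dox replicate 1 dropped (5.53%). Only dropping Dox replicate 2 raised the count, to 34 (2.52%).

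The medians of the subunits were close to each other. The median log2 difference was 0.36 for the large subunit, 0.39 for the small subunit, 0.37 for the stalk and 0.23 for the 4 paralogues. Groups did not overlap for 27 of 31 genes of the large subunit, 21 of 24 of the small subunit, 3 of 3 of the stalk and 2 of 4 paralogues, in each of these higher in Dox-injected piglets. The plot of the differences of the 62 genes shows how closely they lie together.

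**Figure D1:**
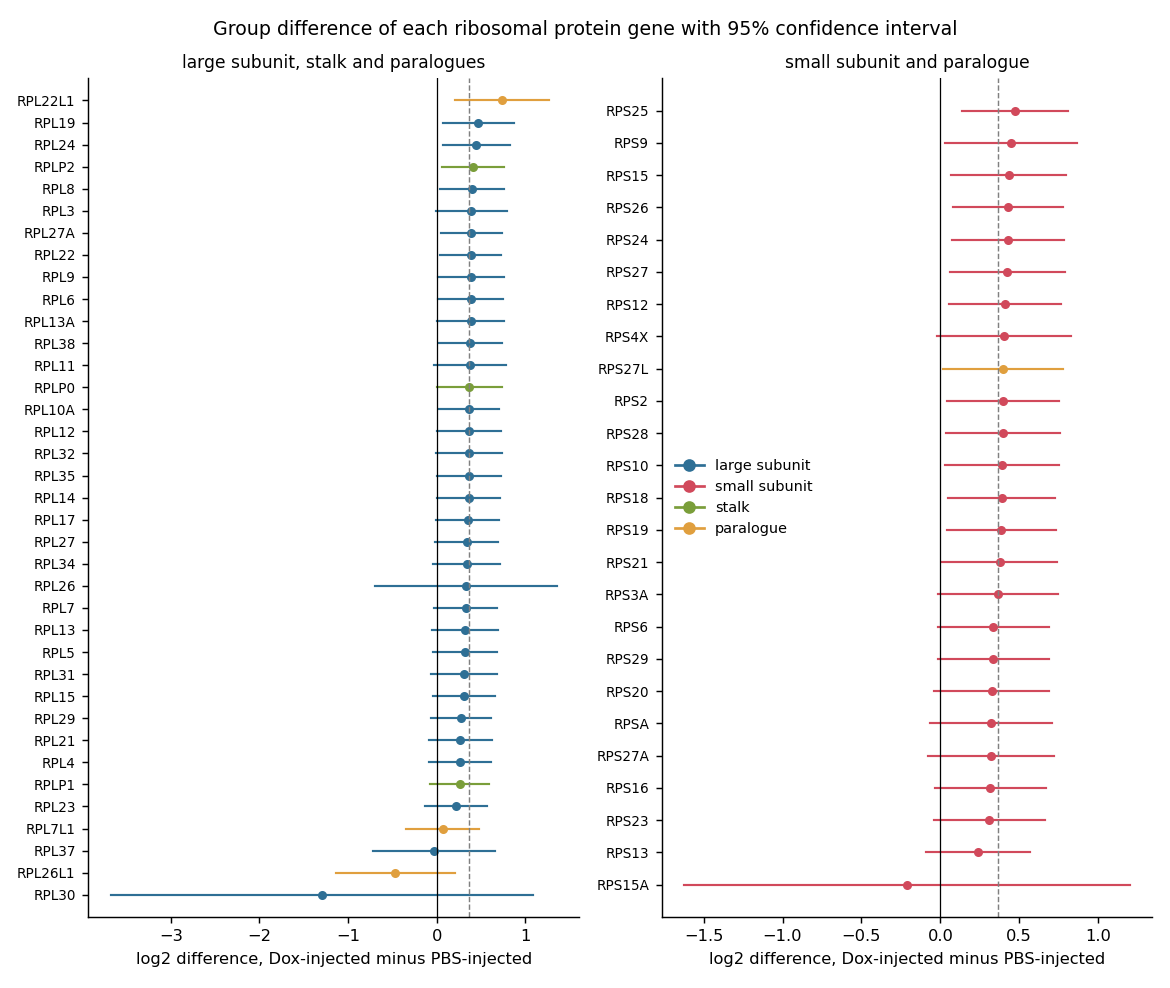
Log2 difference of mean signal, Dox-injected minus PBS-injected, for each of the 62 genes (points) with its 95% confidence interval from limma (lines, 3 arrays per group), with genes of the large subunit, stalk and their paralogues on the left and genes of the small subunit on the right. The dashed line marks the median of 0.37, and the 4 genes below 0 are RPL37, RPL26L1, RPL30 and RPS15A. The panels have different horizontal scales.

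The 52 genes with a mean log2 signal above 11, equal to a signal of 2048, were the most uniform. All 52 were higher in Dox-injected piglets, between a log2 difference of 0.22 for RPL23 and 0.47 for RPL19, with an SD of 0.057 between genes. In fold terms the range was 1.16 to 1.39. Their order across the 6 arrays was also shared. The highest signal was on the array of Dox replicate 3 for 51 of the 52 genes, and the lowest was on PBS replicate 1 for 52 of 52. Over all 62 genes the median signal was 4617, 4342 and 5562 in Dox-injected piglets 1, 2 and 3, against 3372, 3961 and 3930 in PBS-injected piglets. The lowest Dox-injected value thus lay above the highest PBS-injected value by less than the distance between Dox replicates 2 and 3.

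**Figure D2:**
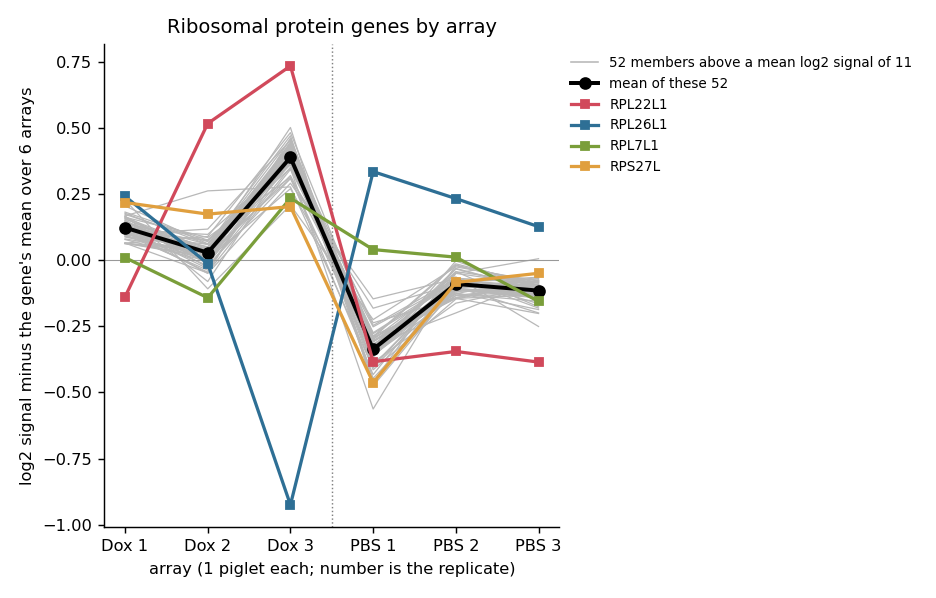
Log2 MAS5 signal of single genes minus the gene's own mean over the 6 arrays, by array, with the Dox-injected piglets left of the dotted line and the PBS-injected piglets right of it. Grey lines are the 52 genes above a mean log2 signal of 11, black is their mean, and coloured lines are the 4 paralogues, of which RPL26L1 is lowest on Dox replicate 3, the array where 51 of the 52 grey lines are highest.

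RPL19 had signals of 3626, 3341 and 4442 in Dox-injected piglets, against 2328, 3062 and 2828 in PBS-injected piglets. The means were 3803 ± 572 in Dox-injected and 2739 ± 375 in PBS-injected piglets (SD, n = 3 each). All Dox-injected values lay above all PBS-injected values. The log2 difference was 0.47, with a standard error of 0.17 (limma, adjusted p = 0.521). It was the largest of the 52 genes above a log2 signal of 11, and the exact permutation test gave p = 0.1, the smallest p that 3 arrays against 3 allow. With spike-in centring its log2 difference was 0.0057. The methods of the study also name GAPDH and GUSB, which encode a glycolytic and a lysosomal enzyme, as reference genes. Its primer list holds only mouse primers for these genes, so the array values below do not describe a standard shown for piglet tissue. GAPDH had a log2 difference of 0.35 and its groups did not overlap. GUSB had signals of 131, 72.7 and 45.1 in Dox-injected piglets, against 227, 103 and 127 in PBS-injected piglets, a log2 difference of -0.93 with overlapping groups. Within an array, the log2 ratio of RPL19 to GAPDH differed between the groups by 0.12, that of RPL19 to GUSB by 1.398 and that of GAPDH to GUSB by 1.28. None of the 3 ratios passed (exact two-sided permutation test, p = 0.2 for each, and 0.2 after adjustment over the 3).

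The stalk proteins form the base (RPLP0) and the mobile arms (RPLP1 and RPLP2) of the stalk. RPLP0 had signals of 7263, 6934 and 9279 in Dox-injected piglets, against 5425, 6294 and 6379 in PBS-injected piglets. RPLP1 had signals of 3795, 3479.7 and 4369 in Dox-injected piglets, against 3111, 3314 and 3237 in PBS-injected piglets. RPLP2 had signals of 1726, 1741 and 2114 in Dox-injected piglets, against 1330.0, 1437 and 1408 in PBS-injected piglets. The groups of all 3 did not overlap, and the log2 differences were 0.37 for RPLP0, 0.26 for RPLP1 and 0.41 for RPLP2 (standard errors 0.16, 0.15 and 0.15, adjusted p = 0.523, 0.576 and 0.521 from limma).

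RPL5, RPL11 and RPL23 are large subunit proteins that can bind the ubiquitin ligase MDM2 when they are not built into ribosomes. RPL5 had signals of 4706, 4314 and 5269 in Dox-injected piglets, against 3299, 4243 and 3942 in PBS-injected piglets. RPL11 had signals of 5891, 5629 and 7421 in Dox-injected piglets, against 3992, 5421 and 5187 in PBS-injected piglets. RPL23 had signals of 4099, 3248 and 4046 in Dox-injected piglets, against 2997, 3441 and 3314 in PBS-injected piglets. The groups did not overlap for RPL5 and RPL11. They did for RPL23, where Dox replicate 2 lay below PBS replicates 2 and 3. The log2 differences were 0.32 for RPL5, 0.38 for RPL11 and 0.22 for RPL23 (adjusted p = 0.546, 0.537 and 0.638 from limma). That of RPL23 was -0.020 after quantile normalization.

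Among small subunit genes, RPS6 encodes the protein that S6 kinase phosphorylates. It had signals of 5416, 4914 and 6418 in Dox-injected piglets, against 4051, 4476 and 4682 in PBS-injected piglets, with a log2 difference of 0.34 (adjusted p = 0.531 from limma). RPS19, which is mutated in many human patients with Diamond-Blackfan anaemia, had signals of 7212, 6750.3 and 8721 in Dox-injected piglets, against 5279.6, 5992 and 6019.9 in PBS-injected piglets, a log2 difference of 0.39 (adjusted p = 0.521 from limma). Neither gene had overlapping groups. RPSA, a small subunit protein that has also been described as a laminin receptor, had signals of 5231, 4405 and 6116 in Dox-injected piglets, against 3689.5, 4406 and 4454 in PBS-injected piglets. Its groups overlapped, because Dox replicate 2 lay just below PBS replicates 2 and 3, and its log2 difference was 0.32.

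RPS25, a small subunit protein that some viral internal ribosome entry sites need, had the smallest unadjusted p of the 62 genes (0.0116 from limma). It had signals of 3105, 3317 and 3352 in Dox-injected piglets, against 2085, 2578 and 2409 in PBS-injected piglets, a log2 difference of 0.47 with a standard error of 0.15 (limma, adjusted p = 0.521). Its values in Dox-injected piglets lay closer together than those of most of these genes. The small subunit genes RPS26 and RPS24 had log2 differences of 0.43 and 0.43, and RPS18, which had the highest mean log2 signal among the 62, had 0.39. RPS18 had signals of 11517, 10463 and 13684 in Dox-injected piglets, against 8345, 9345 and 9426 in PBS-injected piglets. All 3 genes showed no overlap of the groups.

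Several ribosomal proteins have a paralogue that is encoded by another gene and in some cases can take their place. For the pairs measured here, RPL22 binds RNA of the large subunit, and RPL22L1 is its paralogue. RPL22L1 had signals of 739.8, 1165 and 1355 in Dox-injected piglets, against 624, 641 and 624 in PBS-injected piglets. The PBS-injected piglets were nearly equal, the Dox-injected piglets spread widely, and the groups did not overlap. Its log2 difference of 0.74 (limma, standard error 0.23, unadjusted p = 0.0117 and adjusted p = 0.521) was the largest of the 62 genes, and it was 0.28 with spike-in centring. RPL22 itself had signals of 6378, 5871 and 7470.4 in Dox-injected piglets, against 4545, 5306 and 5214 in PBS-injected piglets, and a log2 difference of 0.38. The log2 ratio of RPL22L1 to RPL22 was 0.36 higher in Dox-injected piglets, but its groups overlapped (exact two-sided permutation test, p = 0.4), since on Dox replicate 1 the ratio lay below all PBS-injected values.

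RPL7L1, the paralogue of the large subunit protein RPL7, had signals of 447, 403 and 523 in Dox-injected piglets, against 457, 448 and 399 in PBS-injected piglets. The groups overlapped and the log2 difference was 0.069. RPL7 had signals of 2731, 2696 and 3410.2 in Dox-injected piglets, against 2161, 2479 and 2366 in PBS-injected piglets, and a log2 difference of 0.33 with no overlap. The log2 ratio of RPL7L1 to RPL7 was lower in all Dox-injected than in all PBS-injected piglets, by a log2 difference of -0.26 (exact two-sided permutation test, p = 0.1). RPL7L1 and RPL7 differ in signal, and the other probe sets of the array had a median log2 difference of -0.044 between log2 signals of 8 and 9, where RPL7L1 lies, and of 0.17 between 11 and 12, where RPL7 lies.

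RPS27L, the paralogue of the small subunit protein RPS27, had signals of 1651, 1601 and 1633 in Dox-injected piglets, against 1029, 1339 and 1371 in PBS-injected piglets, and RPS27 had 4044, 4115 and 5402 in Dox-injected piglets, against 3157, 3498 and 3362 in PBS-injected piglets. Neither gene had overlapping groups. Their log2 differences were 0.40 for RPS27L and 0.43 for RPS27, and the ratio of RPS27L to RPS27 differed by -0.028 (p = 0.9, exact permutation test). RPL26L1, the paralogue of RPL26, had signals of 407, 341 and 181 in Dox-injected piglets, against 434, 404 and 376 in PBS-injected piglets. Dox replicate 3 was far below the other arrays and the groups overlapped, so the log2 difference of -0.46 (limma, standard error 0.30 and adjusted p = 0.612) rested largely on that array and was -0.12 without it. The ratio of RPL26L1 to RPL26 differed by -0.79 (p = 0.5, exact permutation test), with RPL26 itself read from a dim probe set. After Benjamini-Hochberg adjustment over the 4 pairs compared, the smallest p was 0.4.

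RPL3, which reaches towards the peptidyl transferase centre of the large subunit, had signals of 1590.3, 2025 and 2315 in Dox-injected piglets, against 1453, 1551 and 1459 in PBS-injected piglets, and a log2 difference of 0.39 (adjusted p = 0.524 from limma) with no overlap. The genes that went against the common pattern were mostly read from dim probe sets. RPL30, a large subunit gene, had signals of 8.0, 0.4 and 5.5 in Dox-injected piglets, against 6.4, 5.6 and 7.3 in PBS-injected piglets. RPS15A, a small subunit gene, had signals of 2.6, 2.1 and 1.8 in Dox-injected piglets, against 1.4, 3.4 and 3.2 in PBS-injected piglets. The Tag probe sets of the array, which have no pig target, reached signals of 2.5 to 6.3, and a signal that did not exceed the brightest Tag probe set on the same array is called within the Tag range. RPS15A was within it on 6 arrays and RPL30 on 2, so no fold is read for RPS15A and little can be read for RPL30.

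RPL26, a large subunit gene, had signals of 13.2, 10.9 and 27.6 in Dox-injected piglets, against 11.7, 16.6 and 10.3 in PBS-injected piglets. RPL37, another large subunit gene, had signals of 52.3, 95.8 and 74.3 in Dox-injected piglets, against 94.7, 63.2 and 66.5 in PBS-injected piglets. The groups of both genes overlapped, with log2 differences of 0.33 for RPL26 and -0.032 for RPL37 (adjusted p = 0.816 and 0.976 from limma). These 4 genes have no brighter probe set under their name in the annotation.

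The hybridization spike-ins are labelled transcripts of bacterial and phage genes (bioB, bioC, bioD and cre), which the standard array protocol adds to the hybridization mix in fixed amounts. All 27 of their probe sets were higher in every Dox-injected than in every PBS-injected array, with a median log2 difference of 0.49 and a range of 0.33 to 0.63. The 6 cre probe sets had differences between 0.37 and 0.42. The mean log2 signal of the 27 deviated from its own mean over the arrays by 0.14, 0.043 and 0.51 on the arrays of Dox replicates 1, 2 and 3 and by -0.31, -0.22 and -0.17 on those of PBS replicates 1, 2 and 3. The mean of the 52 ribosomal protein genes above log2 11 deviated by 0.12, 0.029 and 0.39 on the Dox-injected arrays and by -0.34, -0.090 and -0.11 on the PBS-injected arrays. Both had their highest value on Dox replicate 3 and their lowest on PBS replicate 1. The poly-A spike-ins, bacterial transcripts that the protocol adds to the RNA before labelling, had a median log2 difference of 0.20 over 12 probe sets at their 3′ ends, 1 of them without overlap of the groups. Over 12 probe sets at the 5′ ends of the same transcripts the median was -0.025, and 5 of the 12 were higher in Dox-injected piglets. The part of array brightness in the difference of the ribosomal protein genes was not tested beyond these measurements.

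**Figure D3:**
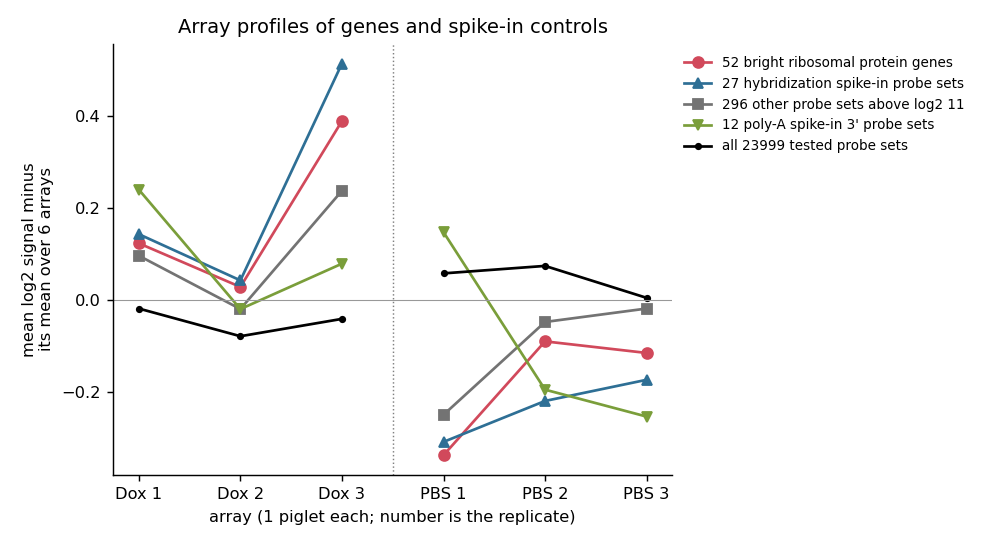
Mean log2 MAS5 signal of 5 sets of probe sets minus the set's own mean over the 6 arrays, by array, with the Dox-injected piglets left of the dotted line and the PBS-injected piglets right of it. The 52 bright ribosomal protein genes (red) and the 27 hybridization spike-in probe sets (blue) are both highest on Dox replicate 3, at 0.39 and 0.51, and lowest on PBS replicate 1, at -0.34 and -0.31, while the mean of all tested probe sets (black) is slightly lower on the Dox-injected arrays.

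When the mean log2 signal of the 27 hybridization spike-in probe sets was subtracted on each array, an alternative chosen after the values were seen, 59 of the 62 genes were lower in Dox-injected piglets and 3 were higher. Of the 52 genes above log2 11, 50 were lower, between log2 differences of -0.25 and 0.0057. The median difference of the ribosomal protein genes thus lay below that of the spike-ins and above that of all tested probe sets. Quantile normalization, which gives all arrays the same distribution of signals, brought the median difference to 0.063. Under it the difference was above 0 for 53 of the 62 genes, and 4.84% of the 62 were higher at an unadjusted p of at most 0.05 (limma), near the 4.47% of all tested probe sets. Cyclic loess, which removes trends with signal between arrays, brought the median to 0.12. Centring on each array's median brought it to 0.60.

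Other bright probe sets also tended to be higher in Dox-injected piglets. Of 296 other probe sets with a mean log2 signal above 11, 81.1% were higher and the groups of 130 did not overlap in that direction (43.9%), with a median log2 difference of 0.24. Of the 52 ribosomal protein genes above that level, 49 showed no overlap, with a median of 0.37. Above a log2 signal of 12, the 107 other probe sets had a median of 0.32 and the 35 ribosomal protein genes had one of 0.37. On each array the median of the 52 genes exceeded that of the other bright probe sets, by 0.37, 0.38 and 0.45 log2 units in Dox-injected piglets and by 0.23, 0.35 and 0.25 in PBS-injected piglets. The lowest of the Dox-injected values lay just above the highest of the PBS-injected values.

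**Figure D4:**
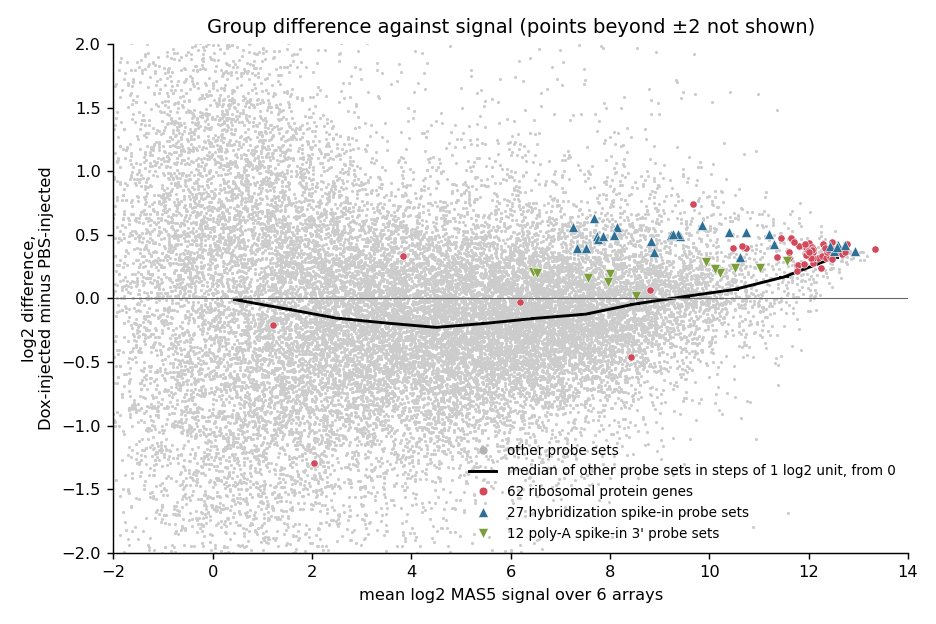
Log2 difference, Dox-injected minus PBS-injected, against the mean log2 MAS5 signal over the 6 arrays for all tested probe sets (grey), the 62 ribosomal protein genes (red), 27 hybridization spike-in probe sets (blue) and 12 poly-A spike-in 3′ probe sets (green). The black line is the median of the other probe sets in steps of signal, with its last point standing for all above 12, where it reaches 0.32 beside a median of 0.37 for the ribosomal protein genes.

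Set against the median of the 62 genes on each array, which removes what they share, single genes differed little. For 50 of the 62, the log2 difference lay within 0.1 of the median of the differences. The relative signals of the groups did not overlap for 8 genes, 2 higher and 6 lower in Dox-injected piglets, where 1.65% of all tested probe sets were higher and 26.3% lower by the same measure. The higher ones were RPS15 (relative log2 difference 0.071) and RPL8 (0.038). The lower ones were RPS23 (-0.054), RPL21 (-0.093), RPL4 (-0.099), RPLP1 (-0.099), RPL7L1 (-0.29) and RPL26L1 (-0.83). RPL8 and RPL4 are large subunit proteins, and RPS23 lies near the decoding site of the small subunit. Among these 8 genes the 2 with the largest relative differences, RPL26L1 and RPL7L1, are paralogues. Both have a mean log2 signal between 8 and 9, where other probe sets had a median log2 difference of -0.044. RPL30 (-1.66), RPS15A (-0.57), RPL37 (-0.39) and RPL22L1 (0.38) differed by more than RPL7L1, with overlapping groups. The other 6 of the 8 genes differed by less than 0.1 log2 units, and RPS15, RPL8, RPS23, RPL21 and RPL4 were singled out after their values were seen.

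Of the 62 genes, 38 had 1 probe set and 24 had 2 or 3. The 24 genes had 32 further probe sets, of which 20 differed between the groups in the same direction as the chosen one and 12 in the opposite direction. All 4 of the further probe sets above log2 11 had the same direction, with log2 differences between 0.30 and 0.50. Of the 6 that lay within the Tag range on 4 or more arrays, 2 had the same direction. Among the 32, the groups of 9 did not overlap with higher values in Dox-injected piglets, and those of 3 with lower values. Over all tested probe sets these shares were 6.19% and 10.1%. The 3 lower sets belong to RPL35 (log2 difference -0.32), RPS27A (-0.42) and RPS25 (-1.63), the last within the Tag range on 6 arrays. RPLP0 was an example of disagreement, since its further probe set had signals of 117, 93.5 and 72.1 in Dox-injected piglets, against 155, 103 and 122 in PBS-injected piglets, a log2 difference of -0.43 with overlapping groups. In 8 genes the bright and the dim probe set carry the same cluster number with the letters A and S exchanged. The bright one is the A set for 5 genes (RPL12, RPL13A, RPL17, RPL32 and RPL6) and the S set for 3 (RPL23, RPL24 and RPS6). Signals of the bright sets ran from 2997 to 8464 and those of the dim sets from 26.5 to 329, and the dim sets had log2 differences between 0.094 and 0.62, all higher in Dox-injected piglets, with no overlap for 3 of them.

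**Figure D5:**
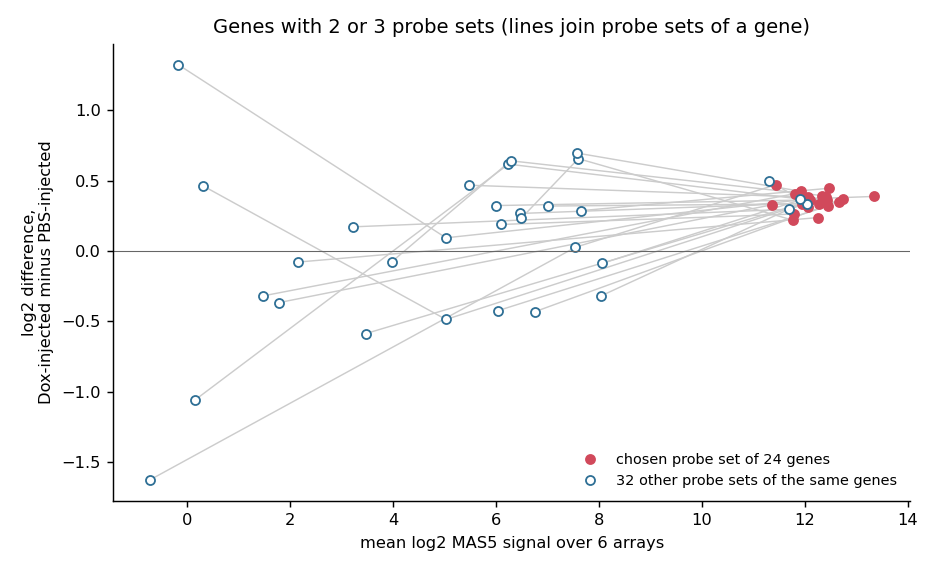
Log2 difference, Dox-injected minus PBS-injected, against mean log2 MAS5 signal over 6 arrays for the 24 genes with 2 or 3 probe sets, with the chosen set in red, the 32 others in open blue and lines joining the sets of a gene. All chosen sets lie above 0, and so do the 4 other sets above log2 11, while the dimmer others lie on both sides of 0.

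The genes that act with ribosomal proteins were read from lists. Over all tested probe sets the groups did not overlap for 6.19% higher and 10.1% lower, the background for the counts of each list. Of the partners that sit on the ribosome or are fused to a ribosomal protein, 4 of 6 were measured (FAU, RACK1, NACA and BTF3). All 4 were higher in Dox-injected piglets without overlap, with a median log2 difference of 0.42, and all were above a log2 signal of 11. Of the 296 other probe sets above that level, 43.9% were higher without overlap. Of the 15 other mRNAs with a TOP motif, which encode mainly elongation and initiation factors, 12 were measured and 11 were higher, 7 of them without overlap, with a median of 0.35. EIF3H, a subunit of initiation factor 3 that the rule for named genes did not name, had signals of 3682, 3741 and 4563 in Dox-injected piglets, against 1867, 3109 and 2713 in PBS-injected piglets. Its log2 difference was 0.67 (adjusted p = 0.521 from limma), and 0.20 with spike-in centring. EIF3E (0.19), EIF4B (0.29) and NAP1L1 (0.23) were also above 0 with spike-in centring. All other measured genes of the TOP list were below 0, down to -0.52 for EIF4A2. With that centring the median of the TOP list was -0.11 and that of the ribosome partners was -0.051.

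Of 25 ribosome assembly factors, which work mainly in the nucleolus, 22 were measured. The difference was above 0 for 20, and the groups did not overlap for 5 higher and 1 lower. Dox replicate 3 stood far above the other arrays for some, such as GNL3 (200, 252 and 686 in Dox-injected against 198, 231 and 195 in PBS-injected piglets). It did not for others, such as EIF6 (347, 440 and 368 against 227, 277 and 294). BOP1 was within the Tag range on 5 arrays, and only NPM1 was above a log2 signal of 11. The median log2 difference was 0.39. With spike-in centring the median was -0.080. Of 17 subunits of RNA polymerase I and regulators of ribosome genes, 7 were measured, 5 with a difference above 0 and a median of 0.24, which was -0.23 with spike-in centring. MYC, a transcription factor that acts on ribosome genes, had signals of 142, 336 and 1045 in Dox-injected piglets, against 62.7, 143 and 81.2 in PBS-injected piglets, and its groups overlapped at Dox replicate 1. The log2 difference of MYC was 2.03 (adjusted p = 0.521 from limma).

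The mitochondrial ribosomal proteins build the separate ribosome of that organelle, and most of their genes had differences below 0. Of 58 genes, 16 had a difference above 0 and 42 below 0, and the median log2 difference was -0.20. The groups did not overlap for 7 higher and 9 lower genes, where the background was 6.19% of all tested probe sets higher and 10.1% lower. None of the 58 was above a log2 signal of 11, where 52 of the 62 cytosolic genes lay, and the 2 kinds of genes were not compared at matched signals.

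Markers of some cell types also differed between the groups, read beside the same background of 6.19% of probe sets higher and 10.1% lower without overlap. Of 12 cardiomyocyte markers 11 were measured, 10 of them above a log2 signal of 11. Their median log2 difference was 0.29, and the groups of 5 did not overlap, each higher in Dox-injected piglets. That is near the share of equally bright probe sets. Of the 296 other probe sets above log2 11, 43.9% showed this pattern, with a median of 0.24. The summed signal of the cardiomyocyte markers was 60686 to 78973 in Dox-injected and 50265 to 61082 in PBS-injected piglets, which overlap. With spike-in centring the median of these markers was -0.17. All 6 measured fibroblast markers had a difference below 0, with a median of -1.01 and a summed signal of 1137 to 2757 in Dox-injected and 2883 to 4673 in PBS-injected piglets. Of 7 endothelial markers, 5 had a difference below 0, with a median of -0.56. The 3 measured neutrophil markers, S100A8, S100A9 and S100A12, were higher without overlap, with a summed signal of 69.8 to 803 in Dox-injected and 12.3 to 31.1 in PBS-injected piglets. Most of that sum came from S100A9, with 56.9, 682 and 186 in Dox-injected against 9.2, 7.8 and 27.5 in PBS-injected piglets. S100A12 was within the Tag range on 4 arrays and S100A8 on 2. No gene of the smooth muscle and pericyte, macrophage and leukocyte, lymphocyte, red cell or adipocyte lists had groups without overlap, with median log2 differences of 0.020, 0.59, -0.24, -0.82 and -0.027 in that order. The log2 ratio of 3′ to 5′ control probe sets, a sign of RNA integrity, was read for 5 controls, and the groups overlapped for each. The ratio of EF1A was 3.54, 2.09 and 2.10 in Dox-injected piglets, against 2.28, 2.08 and 2.26 in PBS-injected piglets. The means of the groups differed by 0.37 for EF1A, by 0.72 and -0.61 for a pair of actin controls and by 0.16 and 0.31 for a pair of GAPDH controls. The part of cell composition and RNA quality in the differences of the ribosomal protein genes was not tested.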

How the data were processed

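Probe set intensities, deposited by the authors as MAS5 signals from GCOS 1.4 and scaled to a 2% trimmed mean of 100 per array, were taken as given. A 0, found for 311 tested probe sets, was raised to 0.1, and log2 was taken. In R 4.3.3, limma 3.58.1 (lmFit, eBayes with an intensity trend) was fitted to the 6 arrays over 23999 probe sets, without the 124 array controls, with Benjamini-Hochberg adjustment. The threshold was that of the study, whose methods name the Microarray Suite algorithms for the arrays and an unpaired Student's test for comparisons between groups. Single values were also tested with an exact two-sided permutation test, whose smallest p was 0.1. The number of arrays limits the precision.

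Genes were named from the platform annotation, in which 10069 tested probe sets have 1 symbol, 198 have several (not named here, 8 of them with a ribosomal protein symbol) and 13732 have none. All 62 genes matched RefSeq by gene ID. Scan batches are not given in the sources used here.

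The rule for named genes took RPL19, the stalk genes, RPSA, the MDM2 binders, RPS6, RPS19, genes with a paralogue and their paralogues, and the extremes in p, signal and difference. It named 26 genes, and 5 further names have no probe set here. A gene list that was planned is not reported here. The genes and lists were chosen with earlier results of these data known. The alternatives were other normalizations, an offset, leaving out dim probe sets or each array, no intensity trend, array weights, a replicate block and a t-test on log2 signals. The fit was tested on simulated data. Plots were made in Python 3.11.15 with matplotlib 3.10.9.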

Additional observations from a re-analysis of the deposited data

Results flagged for a closer look

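The 27 hybridization spike-in probe sets, which the comparisons of genes use only in the alternative with spike-in centring, carried a difference between the groups. Their mean log2 signal was higher by 0.47 on the arrays of Dox-injected piglets, with no overlap of the groups.

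A control probe set for 5S ribosomal RNA had a signal of 141.4 on the array of Dox replicate 3, against 8.0 and 8.3 in the other Dox-injected piglets and at most 6.6 in PBS-injected piglets. This array also had the highest signal for 51 of the 52 bright ribosomal protein genes. Its relation to the differences between the groups was not tested.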

How the results depend on the processing

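No ribosomal protein gene was called under any alternative run, also not among the 14 probe sets of the whole array that passed the adjusted threshold without Dox replicate 1. The median log2 difference of 0.37 was 0.063 after quantile normalization, 0.12 after cyclic loess, 0.60 with centring on the array median and -0.10 with spike-in centring, and ran from 0.26 to 0.43 when each array was left out. The count of 29 genes higher at an unadjusted p of at most 0.05 was 3 after quantile normalization and 4 after loess. It was 56 with array-median centring, 44 of 59 genes without dim probe sets and 0 without a variance trend. With array weights it was 11, with spike-in centring 0, and between 2 and 34 when each array was left out. Of all probe sets tested, 4.47% were higher at that p after quantile normalization and 4.43% after loess, against 4.84% and 6.45% of the 62 genes. The share of all was 7.78% with array-median centring, 4.68% without dim probe sets and 2.68% without a variance trend. It was 5.66% with array weights, 0.767% with spike-in centring, and 2.01% to 5.53% when each array was left out. The count of lower genes was 1 with array weights, 1 with spike-in centring and 0 to 1 when each array was left out. With the replicate number as a block the count of higher genes was 17, where 3.61% of all tested probe sets were higher. Deviations of arrays with the same number correlated at -0.006, 0.02 and -0.06, and those of arrays with different numbers between -0.044 and 0.042. A table note of the study speaks of 3 pairs of failing and non-failing samples. With 3 arrays per group these correlations cannot tell whether animals were paired. With spike-in centring 59 of the 62 genes were lower in Dox-injected piglets. Of 388 values of single named genes under the alternatives, in which spike-in centring is counted for RPL19 alone, 14 changed sign, those of RPL23, RPL37, RPS15A, RPL7L1, RPL26 and RPL30. A kept sign did not mean a kept size. After quantile normalization RPLP0 was 0.019, RPLP1 0.020 and RPS6 0.028, while RPL19 was 0.26, RPS25 0.27 and RPL22L1 0.66. RPL23 was -0.020 after quantile normalization. RPL37 was 0.13 after quantile normalization, 0.15 after loess, 0.20 with array-median centring and 0.24 with array weights. RPS15A was 0.020 with array-median centring. With array weights RPL7L1 was -0.018 and RPL26 was -0.021. When each array was left out, RPL37 ran from -0.24 to 0.20, RPS15A from -0.62 to 0.017, RPL7L1 from -0.031 to 0.16, RPL26 from -0.071 to 0.60 and RPL30 from -2.11 to 0.053. The causes were not tested. The signal above background limits RPS15A and RPL30.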
